A study of Malus domestica with 8 samples.

Results

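The 200 features described here were the apple leaf transcripts whose level differed most between the 2 libraries of the same genotype. They were taken from 21133 eligible features, out of 52311 deposited, by a rule on measured values. Eligible features had a mean of at least 2 on the log2 CPM scale over 8 libraries, where CPM is the read count scaled to library size with TMM factors, and the 200 features of highest mean TPM (the deposited level per length, with an equal total for every library) were left out. For each feature the difference between replicate 2 (R2) and replicate 1 (R1) was squared in each of 4 groups and averaged, and the 200 largest averages were kept. Members were drawn only from features that passed the low-count filter of the tests, so all 200 passed it by construction.

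The 4 groups were all of the cultivar 'Gala' (Malus domestica): the non-transformed control (wt) and 3 CRISPR/Cas9 lines made to knock out MdAGG, named mdagg-2, mdagg-3 and mdagg-4, with 2 libraries each. Every library, wt included, came from in vitro plants that were rooted, kept 8 weeks under glass (22 °C, 80% humidity) and sprayed with 0.2 g/l of acibenzolar-S-methyl (ASM), with leaves taken 3 days later. A library was made from a bulk of leaves, and the replicates of a group came from independent experiments, per the series' design text. Untreated plants, and transformed plants without the knock-out, are not among the libraries analysed here.

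ASM is a salicylic acid analogue used in orchards to switch on systemic acquired resistance, the state in which untouched leaves of a plant carry raised defences. MdAGG stands for apple agglutinin, and agglutinins are proteins that bind carbohydrates. Within a genotype, the difference between replicates holds whatever differed between the leaf bulks and their libraries, and it sets the error against which a knock-out line is compared with wt. The files used here give identifiers without gene names, and 0 of 52311 identifiers matched the reference table. The members' functions are therefore not given, and neither leaf markers nor the transcript of MdAGG could be used to check the labels. In bulk leaves, fewer cells of a type and less RNA per cell cannot be told apart.

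Rounded reads per library ranged from 28591839 to 36995885, and 30341 to 31688 features had at least 10 reads. The members took 0.514% to 0.688% of the reads in 7 libraries and 1.11% in mdagg-4 R2. The libraries mdagg-2 R1 and mdagg-4 R2 stood at opposite ends of the first principal component over all eligible features, with scores of -69.3 and 62.7, while the other 6 libraries scored between -29.6 and 28.7.

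The values that chose the members are a description of the choice. The mean squared difference was 11.3 in the first member and 3.6 in the member of rank 100. It was 2.841 in the last member and 2.839 in the first feature outside, so the border was not a gap. The root of the border value corresponds to a 3.22-fold difference between the libraries of a group, beside 1.28-fold at the median of eligible features. Over all 8 libraries the highest level of a member was a median of 15.9 times its lowest (range 5.03 to 124), beside 1.65 times for eligible features. Members held a median of 546 reads as their mean over libraries, and the lowest count of any member in any library was 4 reads.

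The groups did not contribute evenly. The difference between the mdagg-2 libraries supplied 66.4% of the members' summed squares and that between the mdagg-4 libraries 20.4%, while mdagg-3 supplied 6.71% and wt 6.48%. The largest difference lay in mdagg-2 for 173 members, in mdagg-4 for 17, in mdagg-3 for 4 and in wt for 6. The median absolute difference was 3.3 on the log2 scale in mdagg-2, a 9.85-fold difference, and 1.42 in mdagg-4, a 2.68-fold difference. In wt it was 0.63 and in mdagg-3 0.55. At least 2-fold differences were seen in all 4 groups for 21 members, in exactly 2 groups for 94 and in exactly 1 group for 36.

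Because a group can carry the choice, the rule was repeated on 3 groups and the chosen features were then looked at in the group left out, whose libraries had no part in the squared differences. Leaving out mdagg-2 changed the set most: 83 of 200 members were chosen again. In the mdagg-2 libraries these 200 features differed by a median of 1.66 on the log2 scale, and 143 of them (71.5%) differed by at least 2-fold, where 9.88% of eligible features did. Without mdagg-4, 162 members were chosen again, and 120 of the 200 features (60%) differed by at least 2-fold in mdagg-4, beside 5.99% of eligible features. Without wt, 185 members were chosen again, and 34 features (17%) reached 2-fold in wt, beside 2.83%. Without mdagg-3, 187 members were chosen again, and 45 features (22.5%) reached 2-fold in mdagg-3, beside 3% of eligible features.

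The direction in the group left out differed between groups. Members, which were part of each repeated choice, follow a single axis described below. Counts of the chosen features are therefore not counts of separate observations of a size or direction. Of the 200 features chosen without mdagg-4, 190 had the same sign of R2 minus R1 in mdagg-4 as in the sum of the other groups (95%, beside 67% of eligible features). For mdagg-2 the number was 169 (84.5%, beside 73.1%) and for wt 154 (77%, beside 50.2%). For mdagg-3 it was 89 (44.5%, beside 55.9%). Most features chosen without mdagg-3 did not reach 2-fold there. Their median absolute difference in mdagg-3 was 0.47 on the log2 scale, beside 0.28 for eligible features.

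**Figure D1:**
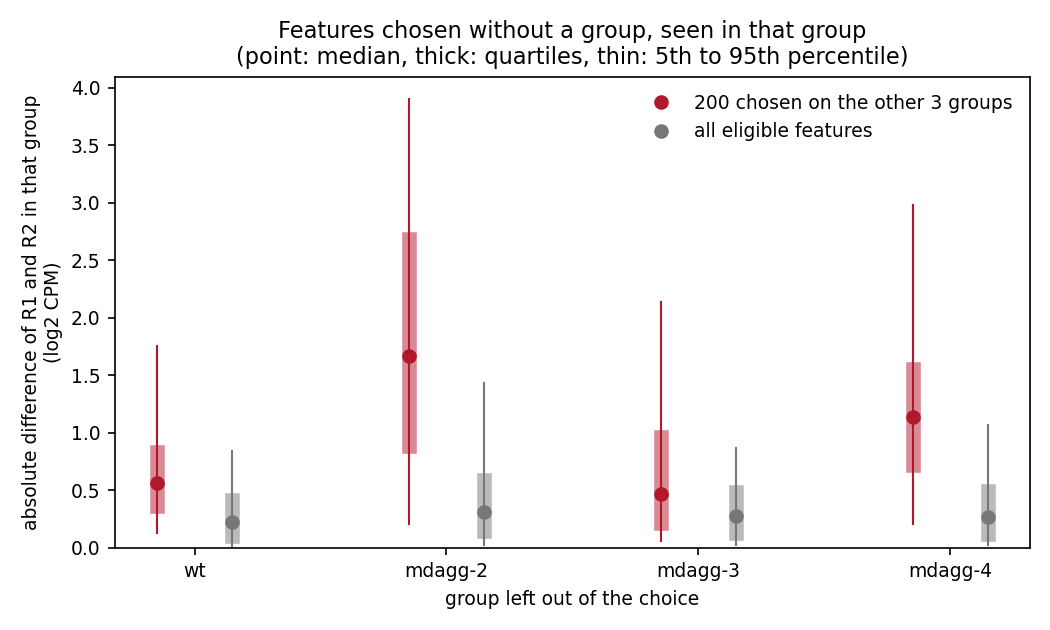
Absolute difference of R1 and R2 in log2 CPM (y axis) in each group (x axis), for the 200 features chosen on the other 3 groups and for all 21133 eligible features; points are medians, thick bars quartiles and thin bars the 5th to 95th percentile. The chosen features have the higher median in each of the 4 groups, 1.66 against 0.32 in mdagg-2 and 0.47 against 0.28 in mdagg-3.

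Over the 8 libraries the members fell on both ends of a single axis. Clustered by their correlation over libraries, 149 members (74.5%) formed cluster A, 48 (24%) formed cluster B and 3 fell in neither. The median correlation between members was 0.91 within cluster A, 0.82 within cluster B and -0.79 between them, over 8 libraries that every correlation shares. Among 2000 eligible features spaced evenly in identifier order, the median absolute correlation was 0.4, and among all members it was 0.84. The rule chose members for wide differences, mostly between the mdagg-2 libraries, so high correlations follow in part from the choice. The clusters were cut on these same correlations, so the values within and between them describe the cut. The first principal component held 80.9% of the members' variance, the second 7.2% and the third 5.69%. The first held 57.5% over all eligible features, 54.2% over eligible features without the members and 81.6% over the next 200 features in the rule's order. Those next 200 were ranked by the same differences, so their share follows in part from the rule.

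**Figure D2:**
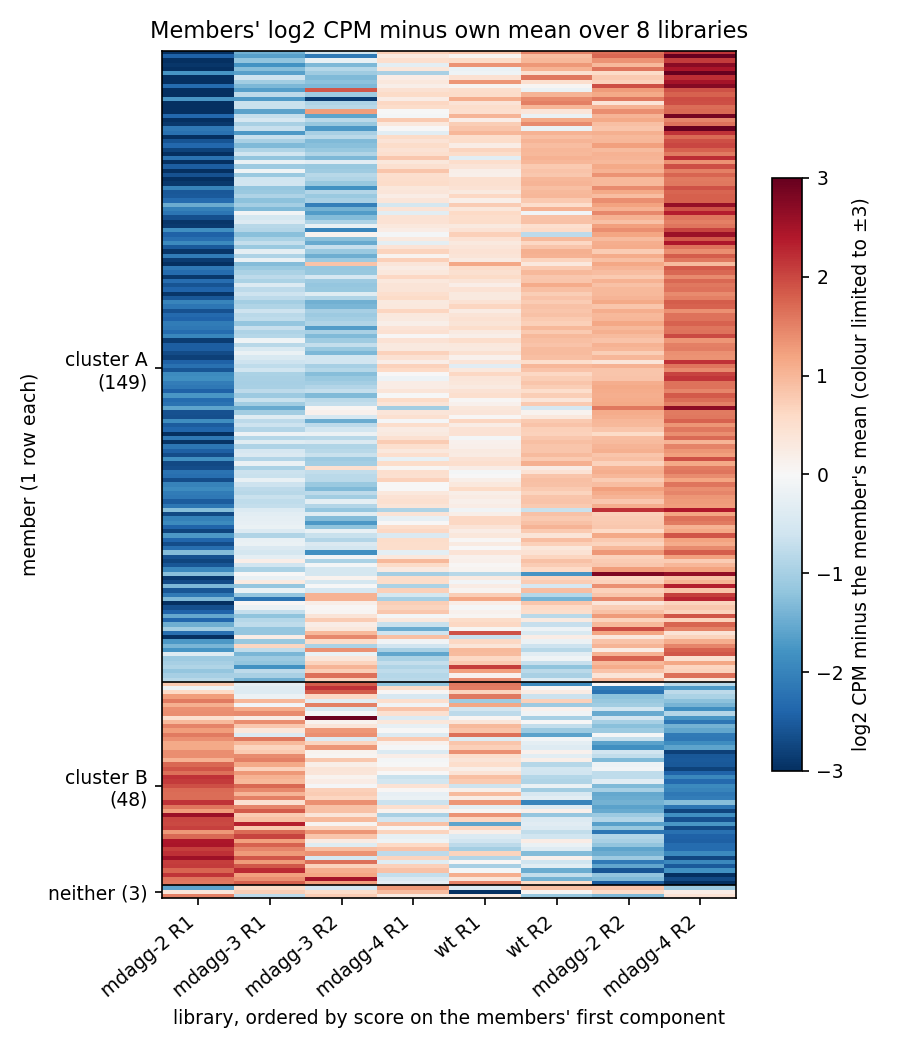
Log2 CPM of each of the 200 members minus its mean over 8 libraries (colour, limited to 3 either way), with members in rows grouped by cluster and libraries in columns ordered by their score on the members' first component. Cluster A (149 members) goes from low in mdagg-2 R1 to high in mdagg-4 R2 and cluster B (48 members) the opposite way, with 3 members in neither.

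The members' scores on the first component, signed so that cluster A is positive, were -31.3 in mdagg-2 R1, -12.3 in mdagg-3 R1 and -10.6 in mdagg-3 R2. They were 2.46 in mdagg-4 R1, 3.28 in wt R1 and 8.58 in wt R2, and then 15 in mdagg-2 R2 and 25 in mdagg-4 R2. The libraries of mdagg-2 and of mdagg-4 were thus far apart, with both wt libraries between those of each line, while the mdagg-3 libraries lay together below wt. Without the libraries mdagg-2 R1 and mdagg-4 R2 the first component held 66.2% of the variance, and 197 of 200 members kept their side of it. On that component, whose sign is arbitrary, mdagg-3 R1 scored 12.9 and mdagg-3 R2 13.2. The scores were -14.4 in mdagg-2 R2, -8.17 in wt R2, -2.13 in wt R1 and -1.39 in mdagg-4 R1. It thus mainly set the mdagg-3 libraries apart from the remaining ones.

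In cluster A the median member stood 2.38 below its own mean on the log2 scale in mdagg-2 R1, where the mean over its members was -2.36. The medians were -0.79 in mdagg-3 R1, -0.88 in mdagg-3 R2, 0.33 in mdagg-4 R1, 0.38 in wt R1 and 0.79 in wt R2. They were 1 in mdagg-2 R2 and 1.62 in mdagg-4 R2. As a level per length, the median TPM of the cluster was 1 in mdagg-2 R1, 3.2 and 3.36 in mdagg-3, 7.61 and 10.1 in wt, 6.84 in mdagg-4 R1, 13 in mdagg-2 R2 and 23.8 in mdagg-4 R2. The library mdagg-2 R1 was the lowest of 8 for 137 of the 149 members, and mdagg-4 R2 was the highest for 134. Among eligible features these libraries were the lowest and the highest for 19.8% and 17.9%. The choice of members by wide differences, and the naming of the clusters by these libraries, favour such counts.

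Cluster B ran the other way. Its median centred log2 CPM was 1.64 in mdagg-2 R1, 1.23 and 0.71 in mdagg-3 R1 and R2, 0.39 in wt R1 and -0.41 in wt R2. It was -0.01 in mdagg-4 R1, -1.18 in mdagg-2 R2 and -2.13 in mdagg-4 R2. The median TPM of its members was 40.8 in mdagg-2 R1 and 4.03 in mdagg-4 R2, with 20.6 and 10.5 in wt. The library mdagg-4 R2 was the lowest for 39 of the 48 members and mdagg-2 R1 the highest for 27. Among eligible features they were so for 23.1% and 20%, with the same limit as in cluster A.

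**Figure D3:**
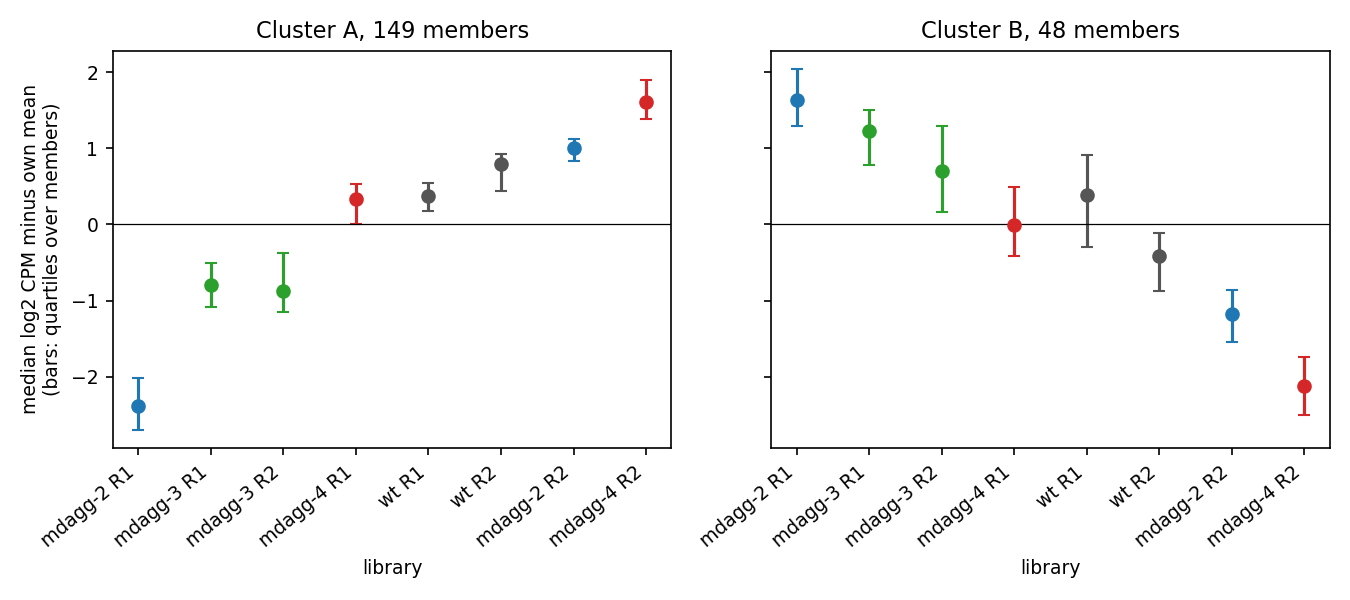
Median centred log2 CPM (y axis) of the 149 members of cluster A and the 48 of cluster B in each library (x axis, ordered by the members' first component, coloured by group), with bars for the quartiles over members. Cluster A goes from -2.38 in mdagg-2 R1 to 1.62 in mdagg-4 R2 and cluster B from 1.64 to -2.13.

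Member by member, R2 was above R1 in mdagg-2 for all 149 members of cluster A, and below it for all 48 of cluster B. In mdagg-4 it was above for 145 of 149 and below for 47 of 48. In wt the same directions held for 115 and 36 members. In mdagg-3, R2 was above R1 for 59 members of cluster A and below for 90, and below for 34 members of cluster B. Between mdagg-2 and mdagg-4, which share no library, 192 of 200 members had the same sign, beside 68.1% of eligible features. Between wt and mdagg-3 the number was 67, beside 38.5% of eligible features. R2 was above R1 in all 4 groups for 32 members (16%), each in cluster A, beside 10.7% of eligible features. It was below in all 4 for 22 (11%), each in cluster B, beside 11.4%. The clusters were cut on correlations over these same libraries, and the mdagg-2 difference weighed most in the choice of members. The split of directions between clusters therefore follows in part from the cut and the choice. Members follow a single axis, so these counts are not counts of separate observations.

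**Figure D4:**
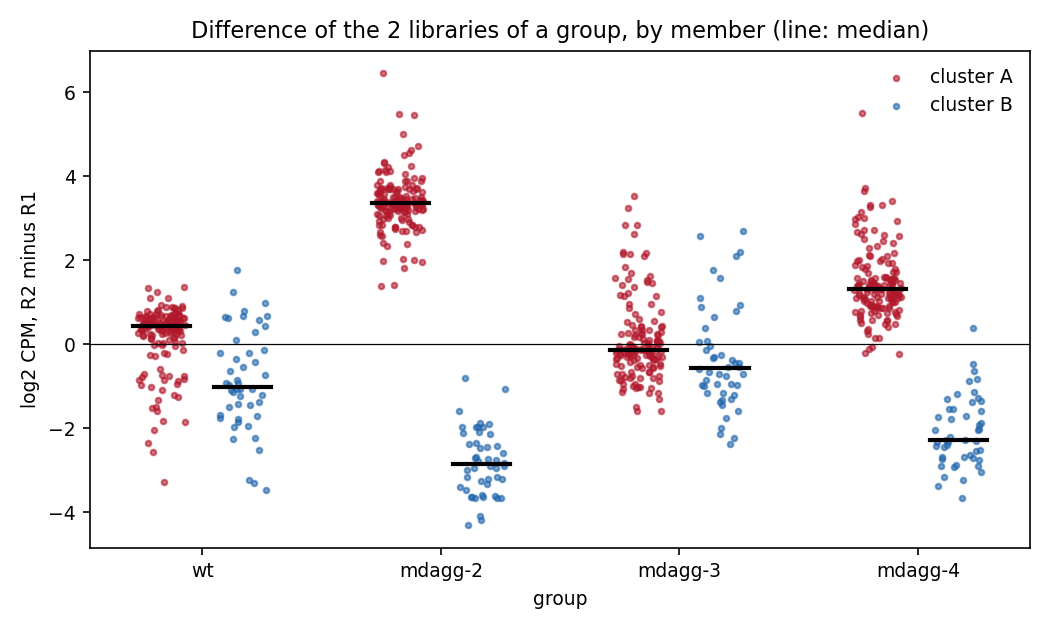
Log2 CPM of R2 minus R1 (y axis) in each group (x axis) for every member of cluster A (red) and cluster B (blue), with black lines at the medians. The clusters lie on opposite sides of 0 in mdagg-2, with medians of 3.37 and -2.86, and overlap in wt and mdagg-3. The clusters were cut on correlations over these same libraries.

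Differences of at least 2-fold between the mdagg-3 libraries were seen for 58 members, 36 in cluster A and 20 in cluster B, of which 32 were higher in R2. In 21 of the 58 the sign was opposite to that in mdagg-2. In wt, 48 members differed by at least 2-fold, 26 of them in cluster B, and 9 of the 48 were higher in R2. On the members' second component mdagg-3 R2 scored 6.32 and mdagg-3 R1 -5.6, and wt R1 3.95 and wt R2 -6.8.

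A first component was also taken over the features outside the set. The first component of the 20933 eligible features outside it had scores of -61.8 in mdagg-2 R1 and 57.5 in mdagg-4 R2. Of the members, 124 had a correlation of at least 0.8 with that component and 37 of at most -0.8, over 8 libraries. In the features outside, 10.6% and 13.1% did. In 9 members the absolute correlation was under 0.5, beside 43.7% of the features outside. The component comes from the same 8 libraries whose differences chose the members. The members' higher shares therefore follow in part from the choice. The features outside were correlated with a component made from themselves, so their shares are raised by construction. Whether the members' axis reached beyond the set was not tested.

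Of the 4 members named, chosen as the 2 largest on each side of the component, MD14G1207600 had the largest mean squared difference between the libraries of a group, and MD05G1188400 the next. The normalised read counts of MD14G1207600 were 38.5 CPM in wt R1 and 23.4 in wt R2. Line mdagg-2 had 1.38 and 64.4 CPM, mdagg-3 8.34 and 96.8, and mdagg-4 36.3 and 99.7, with R1 given before R2. R2 was thus above R1 in the 3 lines and below it in wt. The fitted log2 difference from wt was 0.77 ± 1.47 in mdagg-3 (SE, edgeR adjusted p = 1).

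MD05G1188400, also in cluster A, followed the axis in each library. It stood at 9.9 and 15.4 CPM in wt. Line mdagg-2 had 0.138 and 17.2 CPM, mdagg-3 1.96 and 3.62, and mdagg-4 9.18 and 24.3. Only 4 reads were counted in mdagg-2 R1, against 508 in mdagg-2 R2, so that its lowest level is uncertain. Both mdagg-3 libraries were below both wt libraries, and the fitted difference was -2.17 ± 1.37 on the log2 scale (SE, edgeR adjusted p = 1).

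MD17G1237600, in cluster B, was at 83 and 43.6 CPM in wt. Line mdagg-2 had 88.9 and 5.14 CPM, mdagg-3 103 and 70.4, and mdagg-4 24.3 and 1.87. R1 was above R2 in all 4 groups, and both mdagg-4 libraries were below both wt libraries. The fitted difference in mdagg-4 was -2.28 ± 1.34 on the log2 scale (SE, edgeR adjusted p = 1).

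MD12G1178500, in cluster B, was at 11.4 and 22.7 CPM in wt. Line mdagg-2 had 122 and 9.78 CPM, mdagg-3 75.5 and 14.6, and mdagg-4 33 and 3.11. It was higher in R1 in the 3 lines and lower in R1 in wt. Its estimated reads were not whole numbers in any of the 8 libraries, which Salmon can give where reads match several features. Another member of cluster B lay within the same stretch of 4 identifier positions, with a length of 1175 bases beside 1179 and a correlation of 0.994. Whether these 2 features share reads was not tested.

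**Figure D5:**
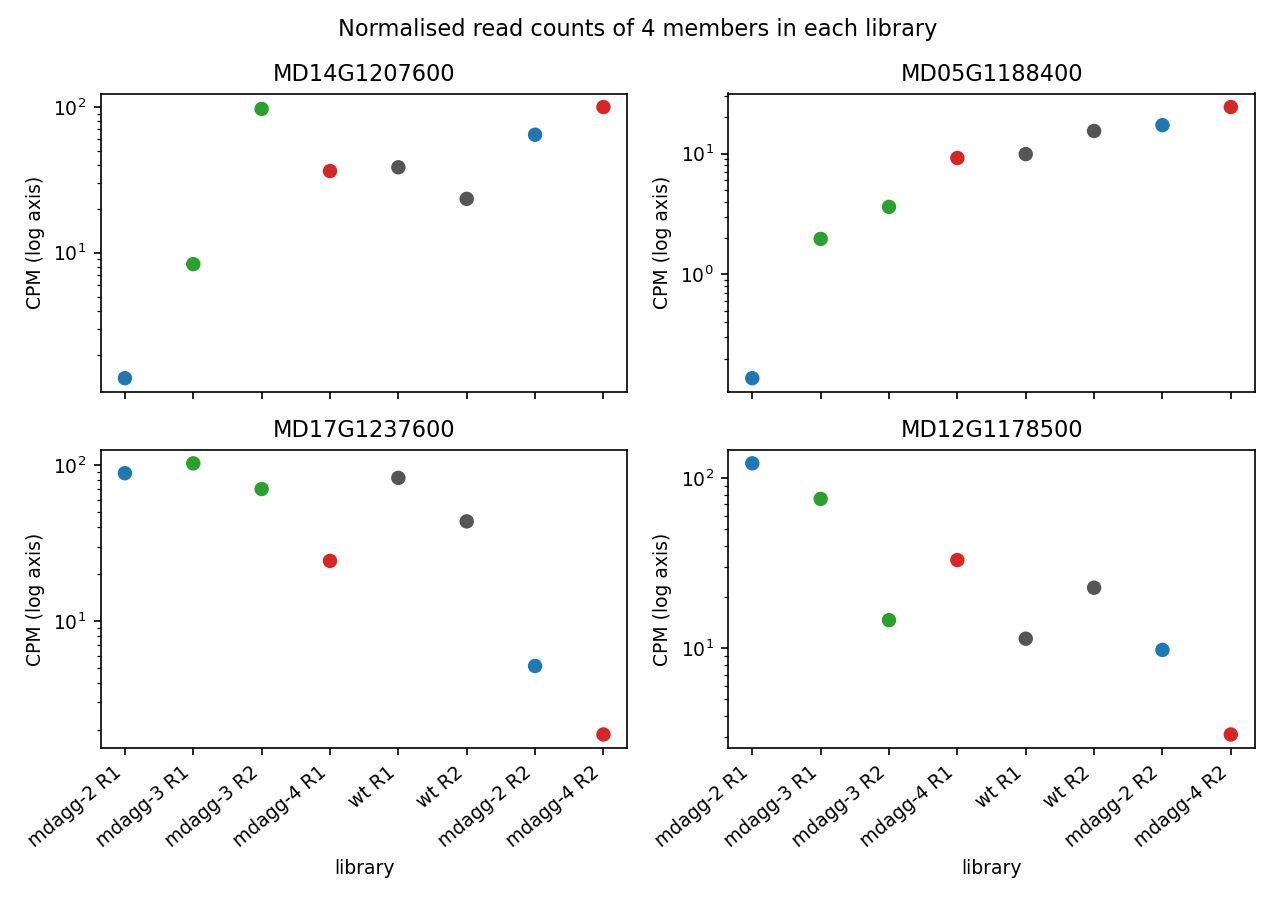
Normalised read counts in CPM (y axis, log scale) of 4 members in each library (x axis, ordered by the members' first component, coloured by group). MD05G1188400 rises along the order from 0.138 in mdagg-2 R1 to 24.3 in mdagg-4 R2. The other 3 depart from the order in places: MD14G1207600 is at 96.8 in mdagg-3 R2, MD17G1237600 is highest at 103 in mdagg-3 R1, and MD12G1178500 is at 14.6 in mdagg-3 R2 and 33 in mdagg-4 R1.

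The 3 members outside both clusters had patterns of their own. The member of rank 147 was at 0.438 CPM in wt R1, with 15 reads, and between 5.5 and 10.4 CPM in the other 7 libraries. The member of rank 106 was highest in mdagg-4 R1, at 20.6 CPM, and lowest in mdagg-2 R1, at 2.83. The member of rank 159 was highest in mdagg-2 R1, at 19.4 CPM, and lowest in mdagg-2 R2, at 2.67.

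The comparison of each line with wt uses group means, which did not enter the rule. The rule did choose wide spreads, so a wide error of these comparisons follows from it: the median standard error of a member's log2 difference was 0.92 in mdagg-2, beside 0.25 for eligible features. In edgeR's quasi-likelihood test, adjusted over 32373 features, 0 of 200 members were called in any single line against wt, where the shares of all features called were 0.00309% (mdagg-2), 0% (mdagg-3) and 0.00309% (mdagg-4). Of the members, 0 were called for the mean of the lines, beside 0%, and 0 among the lines, beside 0.00309%. At an unadjusted p under 0.05 there were 0, 4 and 2 members in the 3 lines (3.65%, 3.13% and 2.94% of all features), 0 for the mean of the lines (2.87%) and 7 among the lines (3.17%). These unadjusted counts varied with the processing, as given in the last section. DESeq2 on the 8 libraries also called 0 members in each of these comparisons, where its calls made up 0.0932%, 0.107% and 0.269% of adjusted features in the 3 lines, 0.181% for the mean of the lines and 0.192% among the lines.

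The positions of the members against wt differed between lines, which share the wt libraries. Median log2 differences of cluster A were -0.47 for mdagg-2, -1.38 for mdagg-3 and 0.48 for mdagg-4. For cluster B they were 0.89, 0.76 and -0.78, taking the lines in the same order, and for eligible features 0.01, 0.003 and -0.008. Both mdagg-3 libraries were outside both wt libraries for 141 members (70.5%), beside 30.1% of eligible features. Of these, 117 members of cluster A were lower and 22 of cluster B higher in mdagg-3. In mdagg-2 the same was seen for 4 members, beside 29.2%, and in mdagg-4 for 15, beside 24.9%. Instead, 131 members had 1 mdagg-2 library below and the other above both wt libraries (25.1% of eligible features), and 78 had the mdagg-4 libraries so placed (22.8%). All 4 counts for mdagg-2 and mdagg-4 are tied to the wide differences between their libraries that chose the members, so nothing is read from them or from their contrast with mdagg-3. The mdagg-2 and mdagg-4 libraries supplied 86.8% of the members' summed squares and the wt and mdagg-3 libraries 13.2%. Because members follow a single axis, the 141 members repeat the place of the same mdagg-3 and wt libraries on it. They are not separate observations of mdagg-3, and nothing is read from their excess over eligible features.

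In the authors' deposited table, 99 of the 200 members had an adjusted p under 0.05 in mdagg-3 against wt, beside 1.49% of all features that table adjusted. They were 49.5% of the members and 20.6% of the 480 calls for mdagg-3 in the authors' deposited table. Of the 99, 89 were lower, all in cluster A, and 10 were higher, all in cluster B, with log2 fold changes from -3.45 to 2.41 in the authors' deposited table. That table called 0 members in mdagg-2 (0.0639% of adjusted features) and 0 in mdagg-4 (0.309%). DESeq2 on only the 4 libraries of mdagg-3 and wt called the same 99 members, while on all 8 libraries it called 0. In edgeR, 136 members had an unadjusted p under 0.05 in mdagg-3 with those 4 libraries (7.28% of all features), 109 without mdagg-2 R1 (5.88%) and 108 without mdagg-2 R2 (5.88%). The rise was not limited to mdagg-3: among the lines the count was 143 without mdagg-2 R1 (7.68%) and 154 without mdagg-2 R2 (13.1%). Without mdagg-2 R2 it was 146 in mdagg-2 against wt (11.8%) and 116 for the mean of the lines (7.01%). In each of these fits 0 members had an adjusted p under 0.05. A fit of 4 libraries, or one without an mdagg-2 library, takes no difference between the mdagg-2 libraries into its estimate of the spread. The part of this, and of the changed mdagg-2 mean, in these counts was not tested. Members follow a single axis, so a count of them is not a count of separate observations.

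Properties that the rule did not use, apart from its limits on abundance, were set beside those of eligible features. Transcripts of cluster A had a median length of 1970 bases (quartiles 1334 and 3003) and those of cluster B 1275 (971 and 1617), with 1749 over eligible features. Outside the set, features with a correlation of at least 0.8 with the component of non-members had a median length of 2132 bases and those of at most -0.8 a median of 1529. The median TPM, as a mean over libraries, was 9.07 in cluster A, 21.9 in cluster B and 13.4 in eligible features, and outside the set it was 9.97 and 22.1 at the 2 ends of the component. In the 5231 longest features outside the set, of 2430 bases or more, the median centred log2 CPM was -0.03 in mdagg-2 R1 and 0.09 in mdagg-4 R2. Its lowest and highest values were -0.19 in mdagg-3 R1 and 0.15 in mdagg-2 R2. The part of transcript length in the members' differences was not tested.

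Other library values moved with the ends of the axis. The TMM factor was 0.913 in mdagg-2 R1, 1.11 in mdagg-4 R2 and between 0.945 and 1.04 in the other 6 libraries. The 200 most abundant features took 36.8% of the summed TPM in mdagg-2 R1, 26.1% in mdagg-4 R2 and between 27.9% and 34.7% in the others. The mean effective length lay between 1124 and 1131 bases in all 8. The part of TMM scaling and of the most abundant features in the members' differences was not tested, beyond the choice with RLE factors, the median-ratio scaling of DESeq2, which kept 199 of 200 members.

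By the chromosome field of the identifiers, in which the apple nomenclature numbers the 17 chromosomes, members were spread over all fields. Per 1000 eligible features they numbered from 4.3 in field 1 to 13.3 in field 3, and they were 0.946% of eligible features in all. In identifier order, 37 members (18.5%) had another member of the same field within 10 positions, beside 7.15% of the eligible features outside the set. They formed 17 groups, 14 of 2 members and 3 of 3, and 12 groups lay wholly in cluster A and 1 in cluster B. The median correlation within groups was 0.94 over 23 pairs of features and the lowest -0.94, where neighbours belonged to opposite clusters. Estimated reads were not whole in at least 1 library for 161 members (80.5%), beside 85.3% of eligible features. The error of these estimates is not given in the files used here.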

How the data were processed

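Per the file headers, the authors deposited for each library a table in the layout of Salmon with estimated counts (expected counts, not normalized), TPM values, lengths and effective lengths for 52311 features. Salmon and DESeq2 are named in the submitters' processing notes, with no version; the genome build was not given in the sources. The authors' deposited comparison table holds whole-number counts, log2 fold changes and adjusted p-values per line. Its 8 count columns compared equalled the rounded estimated counts, and its 4 repeats of wt columns were not used.

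Estimated counts were rounded, filtered with filterByExpr (32373 features kept) and scaled by TMM, with a prior count of 2 for log2 CPM. Contrasts were fitted with edgeR 4.0.16 (R 4.3.3), quasi-likelihood, on 8 libraries with group means as the only terms (4 residual degrees of freedom), with Benjamini-Hochberg adjustment at 0.05. The SE of a log2 difference is an approximation: its absolute value divided by the square root of edgeR's F statistic. DESeq2 1.42.0 was an alternative. Clusters came from average linkage on 1 minus Pearson's r, cut at 0.5. The fit was run on simulated counts with known folds, and the rule on simulated counts with spread added to each feature independently. Neither simulation held a shared axis like that of the members, so neither bears on it. The members, groupings and tests were chosen with earlier results of these data known. Features named were the 2 members of largest mean squared difference on each side of the first component. P-values measure the spread between these leaf bulks only. No function-based gene list could be matched.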

Additional observations from a re-analysis of the deposited data

How the results depend on the processing

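The choice of members kept 142 to 199 of 200 under RLE factors, prior counts of 0.5 and 5, a minimum mean log2 CPM of 1, vst values, inclusion of the most abundant features (13 of which entered) and omission of wt, mdagg-3 or mdagg-4. It kept 132 with a minimum of 3, 98 with the median over groups in place of the mean, and 83 without mdagg-2, where by construction fewer features or groups entered or 1 wide group counted less. The first component held 75.2% to 84.3% of the variance with each library left out in turn, with 198 to 200 members on the same side of it, and 66.2% without both mdagg-2 R1 and mdagg-4 R2, an alternative chosen after seeing the data.

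The count of members called was 0 in each comparison under RLE factors, no low-count filter, DESeq2 on 8 libraries and edgeR with only 4 libraries, and from 0 to 0 with each library left out. It was 99 in mdagg-3 against wt with DESeq2 on only 4 libraries, also chosen after seeing the data. With the replicate block it was 0 in each comparison. Unadjusted p under 0.05 was given to more members in some of these fits. For mdagg-3 there were 30 in edgeR without the filter, 20 with the block and 16 in DESeq2 (3.24%, 4.51% and 2.15% of all features). Among the lines there were 46, 38 and 22 (4.21%, 6.92% and 3.08%). In mdagg-2 there were 1, 3 and 1 (3.46%, 4.5% and 2.22%), and in mdagg-4 3, 11 and 4 (2.74%, 3.88% and 1.83%). For the mean of the lines there were 1, 3 and 1 (2.68%, 3.26% and 1.58%). The replicate numbers were not taken as pairing the samples: the correlation of R2 minus R1 between groups over 32373 features ranged from -0.31 (wt and mdagg-3) to 0.53 (mdagg-2 and mdagg-4). Where a library was left out, the lone library of its group was assumed to vary like the other groups. With 2 libraries per group, low counts limit single members: the lowest held 4 reads in a library.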
